A study of Mus musculus with 9 samples.

Results

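The 7 genes described here are Ifi203, Ifi204, Ifi207, Ifi209, Ifi211, Mndal and Aim2, members of the PYHIN family that lie together in the Ifi200 cluster of mouse chromosome 1. They were chosen by gene symbol, with earlier results of these data known, and all 7 of them were found among the 31167 genes of the expression table. RNA was sequenced from mouse primary renal tubular epithelial cells, the cells that line the tubules of the kidney, taken from C57BL/6 kidney and grown to partial confluence. There were 3 groups of 3 libraries. Sham is the negative control. H/R cells went through hypoxia for 6 h at 1.0% oxygen in glucose-free medium and then 18 h of reoxygenation in complete medium, a culture model of ischemia and reperfusion. EGR1OV cells were transfected, with the reagent EndoFectin Max, with a plasmid that expresses the transcription factor Egr1 from the cytomegalovirus promoter. The study describes Sham as cells that had no treatment, so the effect of Egr1 and that of plasmid transfection cannot be told apart in EGR1OV. It names H/R and the plasmid as alternative treatments of the sequenced cells, but its methods describe transfection as coming before H/R, and whether EGR1OV cells also went through H/R is not clear from the sources used here. Nothing in the labels says that libraries of a group came from separate cultures or animals, so the p-values measure the spread between these libraries, which may be technical.

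PYHIN proteins typically join a pyrin domain, which recruits other pyrin proteins, to a HIN domain, which binds double-stranded DNA. Aim2, the best known of them, senses DNA in the cytosol and assembles an inflammasome with the adaptor Pycard (ASC) and the protease Casp1, which matures interleukins. Other members act in the nucleus or cytosol in the sensing of foreign DNA and in transcription, and many genes of the cluster are known to be induced by interferon. The family is best studied in leukocytes.

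Much of the cluster shares a short promoter element, and it is shown first because the genes differ in it. Promoters were taken from RefSeq (GRCm38.p6), from 250 bases before to 50 after each start site, and an entry was found for 6 of the 7 genes; Ifi204 had none. The interferon-stimulated response element was searched on both strands as GAAA, any 2 bases and GAAA. It was found in 3.44% of 32851 promoters. It was found for 4 of the 6 genes with an entry, namely Ifi203, Ifi207, Ifi211 and Mndal, and not for Ifi209 or Aim2. Of the other PYHIN genes of the cluster, 5 of 6 with an entry held it (Ifi205, Ifi206, Ifi208, Ifi213 and Ifi214), and Ifi202b did not. The stretches below give the element in capitals with 10 bases on either side, each read 5′ to 3′ on the strand of its gene. For Ifi209 the capitals mark the nearest 10 bases instead.
Ifi203 (chr1:173942508-173942537, minus strand): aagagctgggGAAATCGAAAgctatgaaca
Mndal (chr1:173880204-173880233, minus strand): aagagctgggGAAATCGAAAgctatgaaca
Ifi207 (chr1:173741831-173741860, minus strand): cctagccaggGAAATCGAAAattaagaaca
Ifi211 (chr1:173913064-173913093, minus strand): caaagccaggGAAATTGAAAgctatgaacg
Ifi209 (chr1:173630770-173630799, plus strand): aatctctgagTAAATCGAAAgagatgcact
Ifi205 (chr1:174031870-174031899, minus strand): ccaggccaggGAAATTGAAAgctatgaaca
Ifi206 (chr1:173491339-173491368, minus strand): tgtctctgagGAAATCGAAAgctatgaacc
Ifi213 (chr1:173599326-173599355, minus strand): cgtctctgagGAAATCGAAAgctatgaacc
Ifi208 (chr1:173673597-173673626, plus strand): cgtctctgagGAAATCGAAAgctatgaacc
Ifi214 (chr1:173536017-173536046, minus strand): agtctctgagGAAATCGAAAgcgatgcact

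The 10 bases were GAAATCGAAA in Ifi203, Mndal, Ifi207, Ifi206, Ifi213, Ifi208 and Ifi214. Only 16 of all the promoters (0.0487%) held these exact letters, on either strand, and 7 of those belonged to these genes. Ifi211 and Ifi205 had GAAATTGAAA, which 38 promoters (0.116%) held. The Ifi209 stretch differed from GAAATCGAAA by G1T, counted from 1 at the 5′ end of the element. The exact letters were chosen after the promoters had been read. The element began between positions -41 and -35 from the start site in Ifi203, Mndal, Ifi207 and Ifi211, and its nearest form in Ifi209 began at -79. Mndal and Ifi203 each have a pair of start sites in the table, and the positions are those of the start nearest the element. Mndal and Ifi205 each held another match, on the opposite strand.

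A longer stretch before the start site is given for genes that stand for the different promoter forms. Ifi207 holds GAAATCGAAA, Ifi211 holds GAAATTGAAA, and Ifi209 and Aim2 have no match to the motif. Capitals again mark the element.
Ifi207 (chr1:173741810-173741949, minus strand): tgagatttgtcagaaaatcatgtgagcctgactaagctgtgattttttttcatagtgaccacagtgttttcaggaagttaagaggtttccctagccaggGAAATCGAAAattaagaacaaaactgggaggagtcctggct
Ifi211 (chr1:173913047-173913186, minus strand): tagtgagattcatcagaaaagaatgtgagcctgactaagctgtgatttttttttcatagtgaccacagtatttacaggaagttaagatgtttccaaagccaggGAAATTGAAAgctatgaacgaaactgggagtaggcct
Ifi209 (chr1:173630719-173630858, plus strand): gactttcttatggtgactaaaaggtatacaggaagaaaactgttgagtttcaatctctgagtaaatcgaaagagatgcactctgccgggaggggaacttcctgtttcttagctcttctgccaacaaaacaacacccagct
Aim2 (chr1:173420431-173420570, plus strand): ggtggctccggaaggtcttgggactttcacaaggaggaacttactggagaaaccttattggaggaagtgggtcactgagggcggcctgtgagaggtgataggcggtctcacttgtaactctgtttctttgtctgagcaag

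Other motifs were rare among these promoters. A gamma-activated site (TTCNNNGAA, its own reverse complement, in 8.3% of promoters) was found for none of the 6 genes and for Ifi202b alone among the rest of the family. An NF-kB site (GGGA, any 2 bases and TTCC, either strand, in 1.47%) was found for Ifi209, at positions -49 to -40. The Egr1 motif (GCGNGGGCG, either strand, 5.55%) was found in none of the family's promoters. No match says only that these letters are not in this window.

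Reads were recovered from the deposited values as described under the methods. Depth was close to even, at 16183575 to 18383973 reads per library. Egr1 itself was at 6.40 ± 0.443 FPKM in the Sham libraries (SD, n = 3). It was at 7.88 ± 0.599 after H/R and reached 42.6 ± 2.84 in EGR1OV. FPKM counts the sequenced fragments of a gene per kilobase of its exons, scaled by the depth of the library. The labelled cell type was checked against its markers. Epcam and the keratins Krt8 and Krt18 were high in every group, with Krt18 at 685 ± 13.3 FPKM in Sham. Slc34a1, the phosphate transporter of the proximal tubule, was at 0 to 3 reads in each library.

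In EGR1OV the genes other than Aim2 were far above Sham. Ifi204 and Ifi211 reached the highest levels, Ifi203 and Ifi207 lay below them, and Mndal and Ifi209 lay lower still. Aim2 went the other way, on 17 to 26 reads per library in Sham and 6 to 15 in EGR1OV. Each of its EGR1OV libraries was below each Sham library, as were those of 24.6% of all genes tested. Across all genes tested, 9.87% were called higher and 6.51% lower, where a call is a limma adjusted p under 0.05 with a change of at least 1.3-fold. Aim2 was too low for this fit, and whether it was called depended on the test, as given below. Changes are differences of mean log2(FPKM + 1), on which genes with low values change less than their levels do, so the ratio of group means is given as well.

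**Figure D1:**
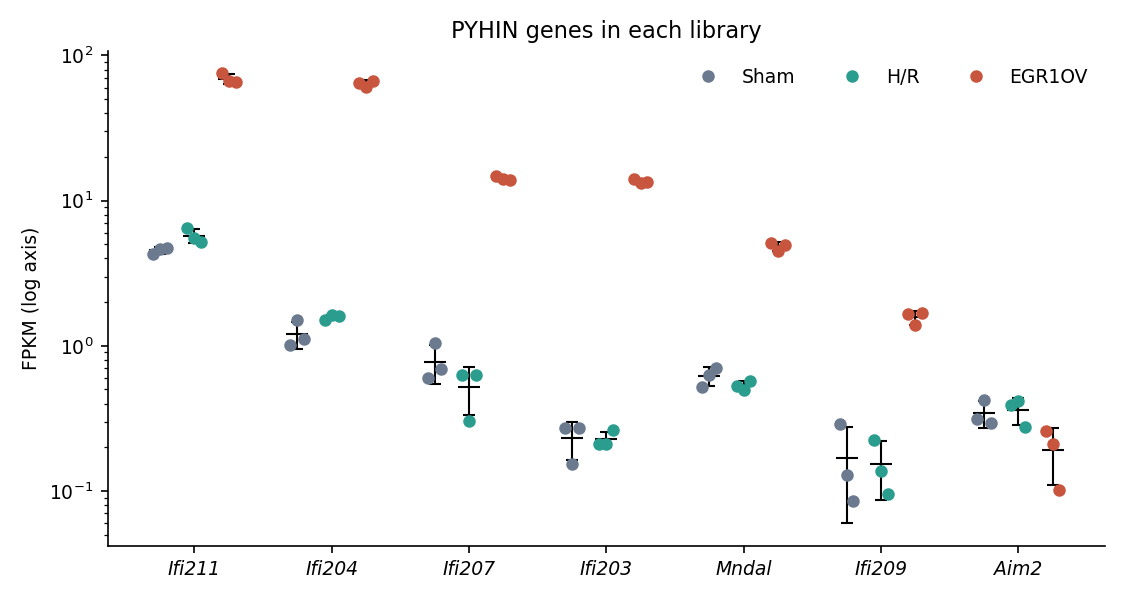
Expression of the 7 genes in each library, as FPKM on a log axis. Each point is a library, the horizontal line is the group mean and the bar is the SD (n = 3). Every EGR1OV point lies above the Sham and H/R points except for Aim2, where every EGR1OV point lies below them. Over all genes tested, every EGR1OV library was above every Sham library for 31.0% and below for 24.6%.

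Ifi204 encodes a PYHIN protein linked to DNA sensing and to the induction of interferon. In Sham its libraries were at 1.02, 1.50 and 1.11 FPKM, values that rest on 60 to 93 reads. In EGR1OV it was at 65.1, 60.8 and 67.0 FPKM, on 3540 to 4017 reads. The groups were far apart, with the lowest EGR1OV library 40.6 times the highest Sham library. The means were 1.21 ± 0.253 and 64.3 ± 3.17 FPKM (SD, n = 3 each), a ratio of 53.2. The change was 4.89 on the log2 scale (SE 0.0756, limma adjusted p = 8.03e-11), at percentile 99.8 of all genes tested.

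Ifi211, another PYHIN gene, was the highest of the 7 genes in Sham, at 4.26, 4.66 and 4.75 FPKM. In EGR1OV it was at 75.4, 66.3 and 65.2 FPKM. No other of these genes was as high in Sham, and in EGR1OV its libraries overlapped in level with those of Ifi204. The ratio of the means, 69.0 ± 5.61 against 4.56 ± 0.262 FPKM, was 15.1. The change was 3.65 (SE 0.0772, limma adjusted p = 5.02e-10). Of the 100-base stretches in its transcript, 56.9% also occur in another gene, mostly Ifi205 and Ifi204, so reads could have been split between these genes and the level of Ifi211 is uncertain.

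Ifi203 was low in Sham, at 0.272, 0.154 and 0.271 FPKM, on 18 to 30 reads per library. In EGR1OV it was at 14.0, 13.3 and 13.4 FPKM, on 1455 to 1559 reads. The ratio of the means was 58.3, the highest of the 7 genes by this measure. On the log2 scale the change was 3.56 (SE 0.0600, limma adjusted p = 1.26e-10), less than that of Ifi204 and of Ifi211, because a value of 1 was added to each FPKM. On the recovered reads with limma voom, which adds only a fraction of a read, the changes were 5.89 (SE 0.195) for Ifi203 and 5.74 (SE 0.131) for Ifi204, and their 95% intervals of 5.49 to 6.30 and 5.47 to 6.01 overlapped.

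Ifi207 was at 0.604, 1.04 and 0.690 FPKM in Sham and at 14.8, 14.2 and 13.9 FPKM in EGR1OV. Its EGR1OV level was close to that of Ifi203, and their libraries overlapped, although in Sham every Ifi207 library was above every Ifi203 library. The change was 3.11 (SE 0.110, limma adjusted p = 2.31e-08), and the mean rose 18.4-fold. It is the most distinct in sequence of the 6 genes that rose, with 0.79% of its 100-base stretches shared.

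Mndal, named for its likeness to the human myeloid cell nuclear differentiation antigen, was at 0.520, 0.632 and 0.701 FPKM in Sham and at 5.11, 4.49 and 4.91 FPKM in EGR1OV. The change was 1.85 (SE 0.0691, limma adjusted p = 3.45e-08). The mean rose 7.83-fold, the lowest ratio among the genes that rose. The annotated body of Mndal spans that of Ifi211 and most of that of Ifi203, but its exons overlap those of Ifi203 by 37 bases only and those of Ifi211 by 0. Another 118 exon bases are shared with Gm38050.

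Ifi209 was the lowest of the genes that rose. Its Sham libraries were at 0.291, 0.129 and 0.0854 FPKM, on 5 to 17 reads, and those of EGR1OV at 1.65, 1.38 and 1.69 FPKM, on 80 to 101 reads. The change was 1.14 (SE 0.0971, limma adjusted p = 1.23e-05), and the mean rose 9.32-fold. On the recovered reads the change was 3.33 (SE 0.333, 95% interval 2.65 to 4.02). It shares 16.9% of its 100-base stretches with Ifi214. Ifi209 and Ifi203 passed the filter of a mean of 0.5 FPKM over the 9 libraries only through their EGR1OV values, so that both had to differ, and the number of genes called is no evidence about the family.

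Aim2, the cytosolic DNA sensor, was the exception. It was at 0.313, 0.426 and 0.294 FPKM in Sham, on 18, 26 and 17 reads, and at 0.258, 0.210 and 0.102 FPKM in EGR1OV, on 15, 12 and 6 reads. Every EGR1OV library was below every Sham library, as were 24.6% of all genes tested, though the highest EGR1OV and lowest Sham libraries lay close together. The ratio of the means, 0.190 ± 0.0799 against 0.344 ± 0.0714 FPKM, was 0.551. Its mean was under the filter, so it had no place in the fit above. With no filter on low values the change was -0.18 (SE 0.0689, limma adjusted p = 0.121), which is not a call. On the recovered reads the change was -0.91 (SE 0.354, 95% interval -1.64 to -0.18, limma voom adjusted p = 0.0347), a call in a test that called 23.4% of 14877 genes. With a pseudocount of 0.1 and no filter it was -0.64 (limma adjusted p = 0.169), not a call. Of these 3 fits the voom fit alone called Aim2, and it was chosen after the data were seen.

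The exact two-sided permutation test of log2(FPKM + 1) gave p = 0.1 for each of the 7 genes between EGR1OV and Sham, the smallest that 3 against 3 allows, and 0.131 when adjusted over the 21 tests of the 7 genes in 3 comparisons. Every EGR1OV library was above every Sham library for the 6 genes in the fit, as were those of 31.0% of all genes tested. Without any 1 of the 9 libraries each of the 6 genes in the fit was still called. For Ifi203 and Ifi209, which passed the filter only through EGR1OV, this had to be so and is no evidence.

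Markers of leukocytes moved with the groups as well. Of 15 leukocyte markers in the table, 11 were tested. Of these 10 were called lower in EGR1OV, beside 6.51% of all genes tested, and 1, Cd14, higher. In EGR1OV their summed level was 46.1 to 54.5 FPKM, below the 164 to 171 FPKM of Sham and the 140 to 150 FPKM of H/R. Csf1r, the receptor that macrophages depend on, was at 6.16 ± 0.459 FPKM in Sham and 1.94 ± 0.181 in EGR1OV, and Ptprc (CD45), the common leukocyte antigen, was at 0.470 ± 0.0311 and 0.144 ± 0.0126. In bulk RNA, fewer cells of a type and less RNA per cell cannot be told apart. Aim2 moved in the same direction as these markers and the other 6 genes in the opposite direction, and the part of leukocytes in the Aim2 result was not tested.

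**Figure D2:**
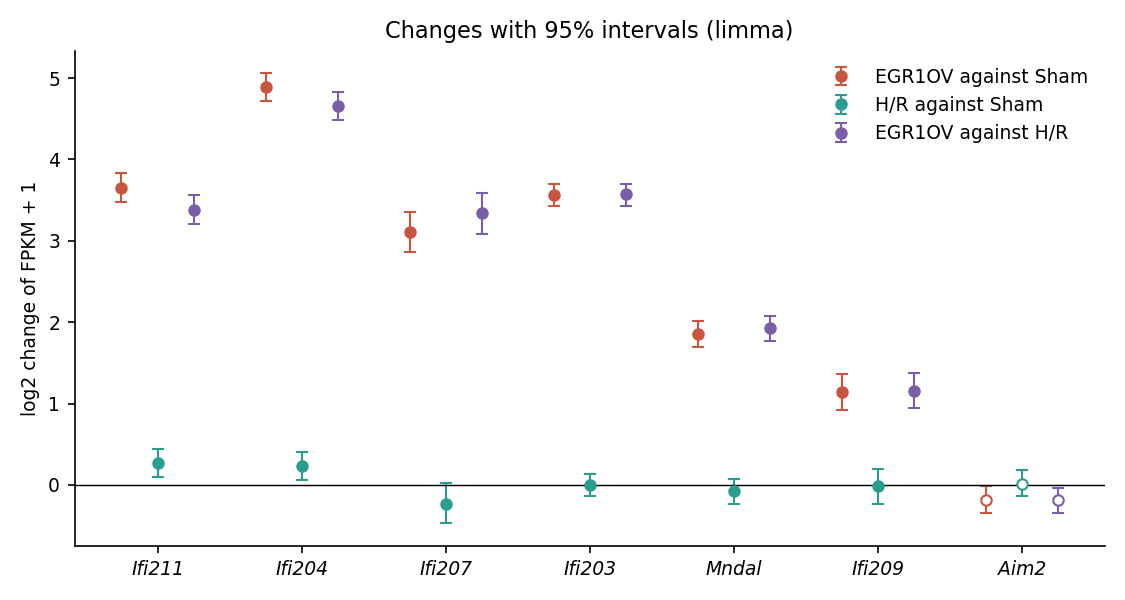
Change of each gene as the difference of mean log2(FPKM + 1), with 95% intervals, in the 3 comparisons. Filled points are from the fit of filtered genes; the open points for Aim2 are from the fit with no filter, in which its change of -0.18 in EGR1OV was not called. The H/R points lie near 0 and those of both EGR1OV comparisons lie well above it for the other genes.

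After H/R none of the 6 tested genes was called, where a call is a limma adjusted p under 0.05 with a change of at least 1.2-fold. Across all genes 4.25% were called, 1.60% higher and 2.65% lower. At an unadjusted p under 0.05, 2 of the 6 genes passed, Ifi204 and Ifi211. With limma voom on the recovered reads, which called 7.05% of genes, 0 of 7 were called, and 3 passed at an unadjusted p under 0.05, these and Ifi207.

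Ifi211 was at 6.44, 5.49 and 5.21 FPKM after H/R, and each library was above the 3 Sham libraries, as were those of 11.8% of all genes tested. The mean of 5.71 ± 0.644 FPKM was 1.25 times that of Sham. The change was 0.27 (SE 0.0772, 95% interval 0.095 to 0.44, limma adjusted p = 0.0547). The adjusted p was 0.0451 without EGR1OV replicate 1, which enters through the shared estimate of the spread, and ranged from 0.0289 to 0.152 over 20 alternatives.

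Ifi204 was at 1.51, 1.62 and 1.61 FPKM after H/R. These libraries too were above those of Sham, the lowest of them 1.01 times the highest Sham library. The change was 0.23 (SE 0.0756, 95% interval 0.059 to 0.40, limma adjusted p = 0.0827). Sham replicate 2, at 1.50 FPKM, decides this value, and without it the change was 0.32 (limma adjusted p = 0.0140), a call.

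The remaining genes overlapped between H/R and Sham. Ifi207 was at 0.632, 0.302 and 0.626 FPKM after H/R, with a change of -0.23 (95% interval -0.47 to 0.022, limma adjusted p = 0.217). Mndal was at 0.528, 0.495 and 0.575 FPKM, with a change of -0.077 (95% interval -0.23 to 0.079, limma adjusted p = 0.513). Ifi203 was at 0.212, 0.211 and 0.261 FPKM. Its change was -0.0041 (95% interval -0.14 to 0.13, limma adjusted p = 0.977), and its sign turned under other scalings. Ifi209 was at 0.226, 0.138 and 0.0954 FPKM, with a change of -0.017 (95% interval -0.24 to 0.20, limma adjusted p = 0.936), whose sign turned as well. Aim2 was at 0.388, 0.419 and 0.274 FPKM, on 22, 27 and 17 reads, with a change of 0.017 with no filter (95% interval -0.14 to 0.18, limma adjusted p = 0.982). At 6 to 38 reads per library for Ifi203, Ifi207, Ifi209, Mndal and Aim2 after H/R, small changes were not detectable at this depth.

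EGR1OV and H/R were also compared directly, since both are set against the same Sham libraries. The 6 genes were higher in EGR1OV, where 18.9% of all genes were called in this comparison, 11.9% higher and 6.94% lower. Of the 6 genes, Ifi203 and Ifi209 passed the filter only through EGR1OV and so had to differ. The difference was 4.66 for Ifi204 (SE 0.0756, limma adjusted p = 9.99e-11), 3.57 for Ifi203, 3.38 for Ifi211, 3.34 for Ifi207, 1.93 for Mndal and 1.16 for Ifi209 (SE 0.0971, limma adjusted p = 1.01e-05). Aim2 was again lower in each EGR1OV library, as were 22.0% of all genes tested, with a ratio of means of 0.527. On the recovered reads its difference was -0.97 (SE 0.350, limma voom adjusted p = 0.0220, a call in a test that called 27.1% of genes), and with no filter it was -0.19 (limma adjusted p = 0.0837).

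The makeup of the family's transcripts differed between the groups as well. The summed level of the 7 genes was 161 to 176 FPKM in EGR1OV, where it had been 7.28 to 8.54 FPKM in Sham and was 8.66 to 9.94 FPKM after H/R. FPKM is a level per exon length, so genes can be set side by side on it, within the limit that 56.9% of the 100-base stretches of Ifi211 and 10.7% of those of Ifi204 occur in other genes, in part in each other. In Sham the order was Ifi211, Ifi204, Ifi207, Mndal, Aim2, Ifi203 and Ifi209, and the libraries of Ifi204 and Ifi207, of Ifi207 and Mndal, and of Ifi203 and Ifi209 overlapped. In EGR1OV the order was Ifi211, Ifi204, Ifi207, Ifi203, Mndal, Ifi209 and Aim2, and the overlaps were between Ifi211 and Ifi204 and between Ifi207 and Ifi203.

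Ifi211 made up 57.7% ± 2.86 of the summed FPKM in Sham and 62.8% ± 2.35 after H/R, but 41.1% ± 1.78 in EGR1OV (SD, n = 3 each). Ifi204 went from 15.2% ± 2.03 in Sham and 17.5% ± 2.0 in H/R to 38.4% ± 1.77 in EGR1OV. Ifi203 went from 2.99% ± 1.04 in Sham to 8.08% ± 0.163 in EGR1OV. These shares did not overlap between EGR1OV and the other groups. Aim2 was 0.0613% to 0.146% of the sum in EGR1OV, against 3.72% to 4.99% in Sham and 3.16% to 4.84% after H/R. Mndal took a smaller share in EGR1OV, 2.88% ± 0.0843 against 7.81% ± 0.938 in Sham. Each share depends on the levels of the other genes, and a fall in share is not a fall in level. The mean level of Mndal rose 7.83-fold, and that of Aim2 was 0.551 of Sham. The shares of Ifi207 overlapped between Sham (8.30% to 12.2%) and EGR1OV (8.34% to 8.84%).

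**Figure D3:**
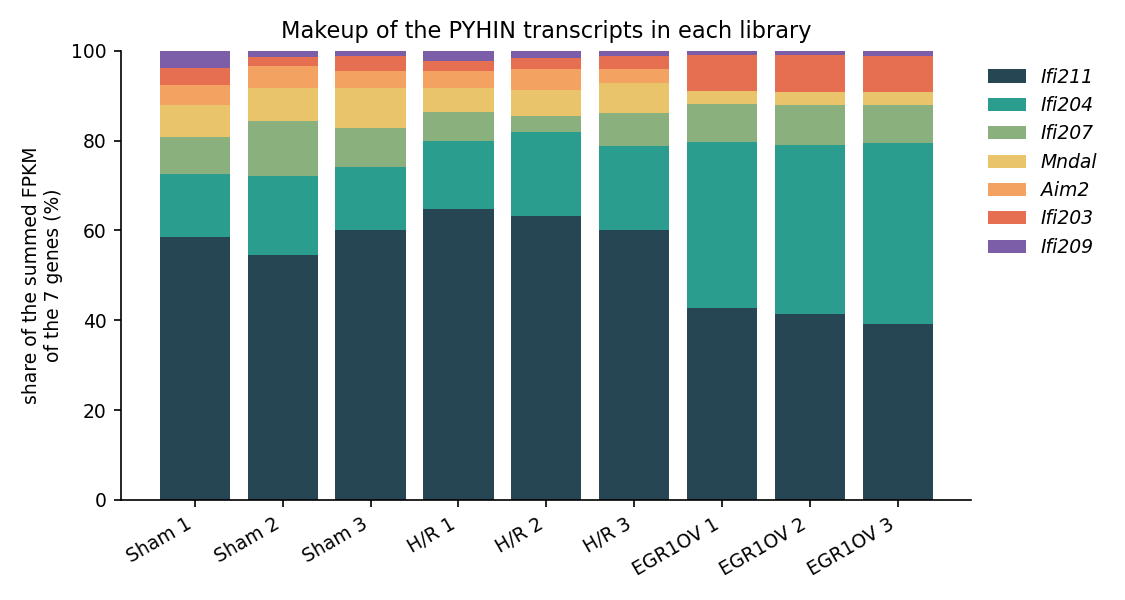
Share of the summed FPKM of the 7 genes taken by each, in percent, for each of the 9 libraries. Ifi211 takes 54.6% to 64.8% without the plasmid and 39.2% to 42.8% in EGR1OV, where Ifi204 takes 36.9% to 40.3%.

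The 7 genes lie on chromosome 1 between positions 173350879 and 173942672 (GRCm38, a span of 591.8 kb). Aim2 is at the outer end, at chr1:173350879-173466040 on the plus strand, and Ifi209 (chr1:173630917-173647928) is also on the plus strand. The others are on the minus strand, in the order Ifi207 (chr1:173723427-173741747), Ifi204 (chr1:173747293-173766943), Mndal (chr1:173849126-173942491), Ifi211 (chr1:173896345-173913046) and Ifi203 (chr1:173920407-173942672). Between and beside them lie 7 other PYHIN genes of the table, which extend the cluster to 680.9 kb.

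Of these 7 genes 4 were tested and called higher in EGR1OV, beside 9.87% of all genes tested. Ifi205 rose from 1.15 ± 0.166 to 20.1 ± 1.83 FPKM (SD, n = 3 each), a change of 3.29 (limma adjusted p = 1.07e-09). Ifi206, on 5 reads in all in Sham and 874 in EGR1OV, was at 0.0320 ± 0.0211 and 5.75 ± 0.231 FPKM, a change of 2.71 (limma adjusted p = 1.32e-09). Ifi213 was at 0.0117 ± 0.0136 and 1.58 ± 0.138 FPKM (limma adjusted p = 7.60e-07), on 4 reads in Sham. Ifi206 and Ifi213 passed the filter only through EGR1OV. Of the 100-base stretches of Ifi205, 15% also occur in Ifi211, and of those of Ifi206, 13.1% occur in other genes.

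Ifi202b encodes a protein with HIN domains and no pyrin domain that is known to restrain Aim2. It was the highest PYHIN gene in Sham, at 18.5 ± 1.85 FPKM, and was at 23.0 ± 1.23 in H/R and 25.2 ± 1.80 in EGR1OV. Its rise was called after H/R (0.30, SE 0.0744, limma adjusted p = 0.0335) and in EGR1OV (0.43, limma adjusted p = 0.00127), and the treated groups differed by 0.13 (limma adjusted p = 0.186). It was the only PYHIN gene called after H/R in this fit.

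Of the genes not tested, Ifi208 had 0 reads in the 6 libraries without the plasmid and 86 to 109 reads in each EGR1OV library, 293 in all. Against a floor of 3 reads over the Sham group that is at least 98.9-fold higher. Ifi203-ps, a pseudogene, had 143 reads in EGR1OV, against 3 in Sham and 4 in H/R. Ifi214 had 0, 1 and 7 reads. Of the 100-base stretches of Ifi203-ps 4.92% also occur in Ifi203, and of those of Ifi214 7.29% occur in Ifi209. For Ifi208 5.92% occur in Ifi213 or Ifi206. Reads could have been split between these genes, and this was not tested. The Mnda, Pyhin1, Pydc3 and Pydc4 symbols were not matched and were not analysed here.

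**Figure D4:**
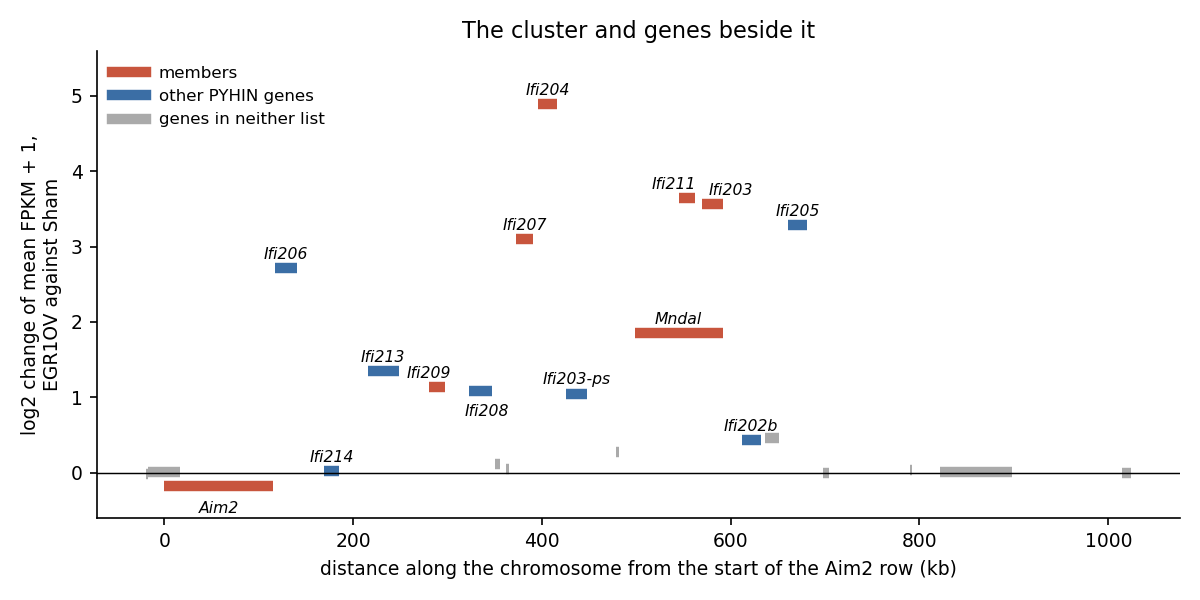
Map of the cluster, with distance along the chromosome in kb on the horizontal axis. The vertical axis is the difference of log2(mean FPKM + 1) between EGR1OV and Sham, with the log taken of group means. Each bar spans a gene's annotated body. Ifi204 lies highest at 4.89, Aim2 lies below 0, and the genes outside the family were all under the filter.

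The 10 genes between or within 500 kb of these that belong to neither list were at 6 reads or fewer in each library, and none passed the filter. Gm18445, named after its values were seen, had 0, 0 and 1 reads in Sham, 0 after H/R and 6, 6 and 4 in EGR1OV, and it shares 100-base stretches with Ifi207.

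The promoter forms shown above can be set beside these values. Among the genes chosen here, all 4 with the response element, Ifi203, Ifi207, Ifi211 and Mndal, rose in EGR1OV. Of the other PYHIN genes with it, Ifi205, Ifi206 and Ifi213 were called higher. Ifi203, Ifi206 and Ifi213 passed the filter only through EGR1OV and so had to differ. Ifi208 and Ifi214 were not tested, with 0 summed reads each in Sham and 293 and 7 in EGR1OV. Among all tested genes with a promoter entry, 30.7% of 355 with the element were called higher, against 9.47% of 9251 without it. Both sets include genes that passed the filter only through EGR1OV, such as Ifi203, Ifi206 and Ifi213 with the element and Ifi209 without it. Genes as low that did not rise were not tested. How far this raises each percentage was not tested, so no conclusion about the element is drawn from them. Ifi209, whose nearest 10 bases differ from the searched motif at 1 base, rose as well. The nearest 10 bases of Aim2, which did not rise, and of Ifi202b also differ from the searched motif at 1 base. From the letters GAAATCGAAA those of Ifi209 differ by G1T, and those of Aim2 by A3C, T5A and C6A. Those of Ifi202b differ by T5A, C6T and A9C. With 1 mismatch to these letters allowed, 1.38% of promoters matched, that of Ifi209 among them and those of Aim2 and Ifi202b not. Every tested PYHIN gene was called higher in EGR1OV, with or without the element. The part of the element in the rise was not tested. A match is a description of the letters and not a site.

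Aim2 acts through a set of partners, and these did not move as a block in EGR1OV. Of 14 genes of the inflammasome list, 8 were tested and 5 were called higher, 0 lower. Il1b and Casp4 passed the filter only through EGR1OV and so had to differ, and genes as low that did not rise were not tested. Without them 3 of 6 were called higher, with a median change of 0.69, beside 9.87% called higher and a median of 0.017 over all genes. Il1b, the cytokine that Casp1 matures, rose from 0.390 ± 0.244 to 8.48 ± 1.23 FPKM (2.78, limma adjusted p = 6.31e-07). Casp4, the caspase that senses bacterial lipopolysaccharide, rose by 2.18, Il1a by 1.88 and Gsdmd, the protein that forms the pore in the membrane, by 1.43.

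The partners that Aim2 binds or activates first stayed low. Pycard was at 0.110 ± 0.0431 FPKM in Sham and 0.0477 ± 0.0161 in EGR1OV, on 5 to 10 and 2 to 4 reads, and was not tested. Casp1 was at 0.663 ± 0.366 FPKM in Sham and 0.549 ± 0.240 in EGR1OV, a change of -0.091 (limma adjusted p = 0.687). After H/R 0 of these 8 genes were called by limma, 2 passed at an unadjusted p under 0.05, and 0 of 9 were called by limma voom.

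Of the genes of cytosolic DNA sensing outside the family, 8 of the 10 listed were in the table and tested, and 5 were called higher in EGR1OV, 0 lower. Without Zbp1, which passed the filter only through EGR1OV, 4 of 7 were called higher, with a median change of 0.41. Over all genes tested 9.87% were called higher. Zbp1, a sensor of nucleic acids, rose from 0.180 ± 0.0380 to 25.7 ± 1.25 FPKM (4.50, limma adjusted p = 3.88e-11). Ikbke, a kinase upstream of interferon, rose by 1.3, Samhd1, which degrades nucleotides, by 1.2 and the helicase Ddx41 by 0.49. After H/R 0 of 8 were called by limma, 0 passed at an unadjusted p under 0.05, and 0 were called by limma voom.

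Of 10 genes of interferon signalling, 8 were called higher in EGR1OV and 0 lower, beside 9.87% and 6.51% of all genes tested. Without Ifnb1, which passed the filter only through EGR1OV, 7 of 9 were called higher, with a median change of 1.65. The transcription factor Irf7 rose from 0.823 ± 0.185 to 223 ± 5.07 FPKM (6.95, limma adjusted p = 1.38e-11). Stat2 and Irf9, which act in the response to interferon, rose by 4.08 and 2.17. Ifnb1, the gene of interferon beta, had 0 reads in each Sham and H/R library and 38, 37 and 24 reads in EGR1OV. After H/R 0 of the 10 were called by limma, 2 passed at an unadjusted p under 0.05, and 1, Irf9, was called by limma voom, lower in H/R.

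**Figure D5:**
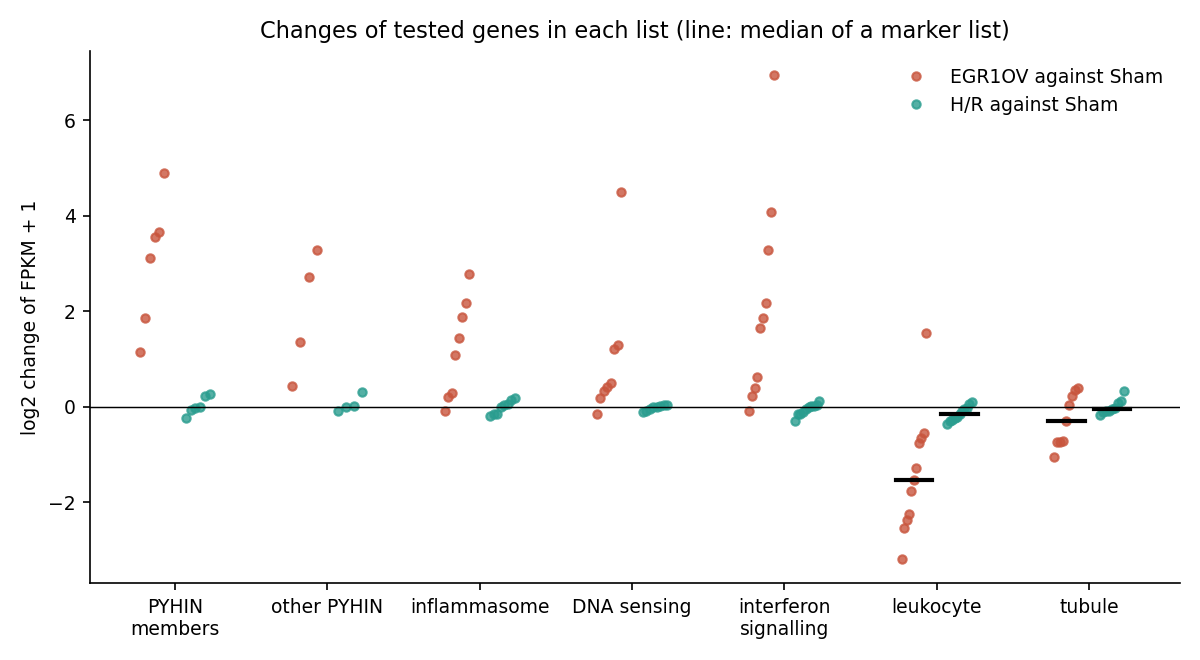
Change of each tested gene by list, as the difference of mean log2(FPKM + 1), for EGR1OV against Sham and H/R against Sham. Each point is a gene. Lines are medians, -1.54 for leukocyte markers in EGR1OV, and none is drawn for the lists in which a gene passed the filter only through EGR1OV.

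Markers of other cell types were read the same way. Over all genes tested, 9.87% were called higher and 6.51% lower in EGR1OV, and 1.60% higher and 2.65% lower after H/R. The 11 leukocyte markers tested had a median change of -1.54 in EGR1OV, and those called lower were led by Lyz2 at -3.19, C1qa at -2.55, C1qc at -2.38 and C1qb at -2.24. After H/R 2 were called, Adgre1 at -0.36 and Lyz2 at -0.29, both lower. Of 9 tubule markers tested, 4 were called lower in EGR1OV (Lrp2 at -1.05, Aqp1 at -0.75, Krt18 at -0.73 and Krt8 at -0.71) and 1 higher, Epcam at 0.39, and their summed level was 1894 to 1933 FPKM in Sham and 1232 to 1336 in EGR1OV. After H/R only Epcam was called, at 0.33. Of 5 endothelial markers Pecam1 was called lower in EGR1OV (-0.46) and 0 after H/R by limma, at an unadjusted p under 0.05 and by limma voom. Of 4 fibroblast markers Col1a2 was called higher in EGR1OV (0.45), and Col1a1 (0.27) and Col1a2 (0.32) after H/R. The part of these cells in the PYHIN results was not tested.

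The genes most like each PYHIN gene were taken by Pearson's r of log2(FPKM + 1) over the 9 libraries. The values are a description, since the 3 EGR1OV libraries stand apart and set them, and many genes share that pattern. Ifi203 was most like Trim30d (r = 0.9999), Cxcl11 and Iigp1, and Ifi204 was most like Gm20559 (r = 0.9998), Ifi47 and Lamp2. Ifi207 was most like Eif2ak2 (r = 0.9993), Mlkl and Hcar2. Ifi211 was most like Psme1 (r = 0.9989), Egr1 and Gm20559, and Mndal was most like Nampt (r = 0.9989), Gbp7 and Lgals8. Ifi209, the lowest of them, had lower values and was most like Pde4b (r = 0.9953), Il1b and Stard3.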

How the data were processed

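RNA from 9 libraries, 3 per group, was sequenced by the authors on an Illumina NovaSeq instrument. The deposited table holds FPKM per gene and library. The submitters' processing notes name Bowtie2 2.2.3, HISAT2 2.1.0, TopHat2 and the build mm9, with no role for each, but 94.6% of gene positions equal GENCODE M21 (GRCm38), so coordinates are given on GRCm38. The table's annotation columns served for names and positions only. Groups were taken from the titles and group labels, and the thresholds against Sham are those of the study.

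FPKM values are not counts. The 13985 genes whose mean over all libraries reached 0.5 FPKM were tested on log2(FPKM + 1) in 1 fit of all libraries (limma 3.58.1, R 4.3.3, eBayes with trend, two-sided, Benjamini-Hochberg over all genes tested). Calls needed a 1.3-fold change, or 1.2-fold for H/R against Sham, at an adjusted p under 0.05. With GENCODE M21 exon lengths the values gave back whole reads, and 94% of 162961 values checked were whole within 0.02 reads. How reads that match several genes were counted is not given in the sources used here. Floors of 3 reads cover counting error only. Counts of replicate pairs had a chi-square per degree of freedom of 1.97 to 3.59, above sampling noise, so none were merged. The code was tested on simulated data.

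The 7 genes, the gene lists and the tests were chosen with earlier results of these data known. Named were all PYHIN genes listed, Egr1, from each other list up to 4 called genes with the largest change in EGR1OV and up to 2 after H/R, a fixed set whatever their values (Ifnb1, Pycard, Casp1, Ptprc, Csf1r, Lyz2, Epcam, Krt18), called genes beside the cluster, and the 3 genes most like each PYHIN gene. Cd14, Slc34a1, Cdh1, Cdh16, Pax2 and Pax8 were named after their values were seen. A gene that the rule picks is not reported here. The rest used Python 3.11.15 (scipy 1.17.1, pandas 2.3.3, numpy 2.4.6), and figures were drawn with matplotlib 3.10.9.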

Additional observations from a re-analysis of the deposited data

Results flagged for a closer look

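For each of the 6 tested genes the change in EGR1OV and the change after H/R, both against the same Sham libraries, differed by the direct limma test of EGR1OV against H/R. The difference on the log2(FPKM + 1) scale was 4.66 for Ifi204, 3.57 for Ifi203, 3.38 for Ifi211, 3.34 for Ifi207, 1.93 for Mndal and 1.16 for Ifi209. For each of them every EGR1OV library was above every H/R library, as were those of 36.6% of all genes tested. In this comparison 18.9% of all genes tested were called, 11.9% higher and 6.94% lower. Ifi203 and Ifi209 passed the filter only through EGR1OV, so both had to differ.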

How the results depend on the processing

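Each value was recomputed with no filter, with a filter of 5 FPKM, with a pseudocount of 0.1, after quantile normalization or median-ratio scaling, with limma without trend, with the replicate block, with only the groups compared in the fit, with limma voom on recovered reads, and without each library. Limma voom on genes with a mean of at least 10 reads, and a pseudocount of 0.1 with no filter, were chosen after the data were examined. For EGR1OV against Sham and against H/R, 118 of 120 values kept their direction and side of the threshold. The others, which moved in size, were Aim2 at -0.91 against Sham and -0.97 against H/R with voom, where it was called, and at -0.64 and -0.69 with a pseudocount of 0.1 and no filter, where it was lower and not called, as with no filter alone. All 6 genes were called in both comparisons, with a range of 6 to 6 without each library, except at a mean of at least 5 FPKM, where 3 were left to test and 3 were called. Ifi203 and Ifi209 passed the filter of 0.5 FPKM only through EGR1OV and so had to differ. Ifi204 and Ifi207 passed the filter of 5 FPKM in the same way. The pseudocount of 0.1 and voom moved the sizes most, with Ifi203 between 3.47 and 5.89, Ifi209 between 1.09 and 3.33, and Mndal between 1.80 and 2.96 in EGR1OV against Sham. Ifi211 moved between 3.59 and 3.91.

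After H/R the count of 0 became 1 under a pseudocount of 0.1, the filter of 5 FPKM, median-ratio scaling and quantile normalization, and 0 to 1 without each library. The gene was Ifi211 (0.32, 0.27, 0.30 and 0.31; limma adjusted p 0.0456, 0.0289, 0.0372 and 0.0477, and 0.0451 without EGR1OV replicate 1) or, without Sham replicate 2, Ifi204 (0.32; 0.0140). The sign of Ifi203 after H/R turned to 0.0035 under median-ratio scaling, 0.021 under quantile normalization, 0.021 with voom at either filter, and to values of 0.0052 to 0.02 without Sham replicate 1 or 3 or H/R replicate 1 or 2, within a range of -0.051 to 0.02 without each library. That of Ifi209 turned to 0.022 under quantile normalization and to 0.057 and 0.02 without Sham replicate 1 or H/R replicate 3, within a range of -0.068 to 0.057. The cause was not tested. At 5 to 31 reads per library the sign of neither gene could be told.

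Libraries with the same replicate number did not deviate together more than others did. Their correlations were -0.021 to 0.062, and those of unlike numbers -0.068 to 0.067. With 3 libraries per group this cannot decide whether the numbers mark a shared preparation. With the replicate block 6, 0 and 6 genes were called for EGR1OV against Sham, H/R against Sham and EGR1OV against H/R, the same counts as without it.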
